A study of Homo sapiens with 6 samples.

Results

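The genes described here act in mitosis: the mitotic kinases and their regulators, the anaphase-promoting complex or cyclosome (APC/C), spindle and cytokinesis proteins, and MKI67. They were taken from a list of 58 gene symbols, of which 57 were measured, out of 18417 genes on the arrays. Each gene was represented by its probe set, the group of probes read as a unit, that is annotated to that gene alone and has the highest mean over all 6 arrays. HAUS7 had its only probe set in common with another gene and was not measured by this rule. RNA came from A204, an established human cell line derived from a rhabdoid tumour, grown in medium with serum. On 3 arrays the cells had received SAHA (vorinostat), an inhibitor of histone deacetylases, for 12 h. On 3 control arrays they had received DMSO, the solvent, per the treatment protocol, although another label of these samples names no treatment. The labels print the SAHA concentration with an incomplete unit, so no dose is given. The arrays of a group are not said to come from separate cultures. The p-values therefore weigh the difference between groups against a spread within groups that may be only technical. All cells belong to a single line.

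Entry into mitosis depends on CDK1, which WEE1 and PKMYT1 hold back by phosphorylation and the CDC25 phosphatases release. Aurora A, activated by TPX2 and working with BORA, switches on PLK1, and the APC/C, a ubiquitin ligase, later ends mitosis by marking cyclins and securin for destruction with its coactivators CDC20 and FZR1. Many genes of this programme are transcribed only in the late cell cycle, through the MuvB complex with B-MYB and FOXM1, which binds CHR elements (cell cycle genes homology region), often beside CCAAT boxes bound by NF-Y.

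Most of these genes were lower after SAHA, and how far they fell differed by role. Of the 57 genes, 43 were lower, 6 were higher and 8 did not pass (limma, Benjamini-Hochberg adjusted p under 0.05 over all 18417 genes). By the same test 28.9% of all genes were lower, 31.1% higher and 60% changed in either direction. A fall of at least 2-fold was found for 29 of the 57 genes, against 5.42% of all genes, and a rise of at least 2-fold for 2, against 5.84%. Falls of at least 4-fold were found for 18 genes (1.22% of all genes) and of at least 8-fold for 6 (0.277%). The median change was -1.06 on the log2 scale, where all genes had a median of -0.0027. The groups did not overlap for 51 genes (65.4% of all genes), with all SAHA values below all control values for 44 (31.6%) and above them for 7 (33.8%). Fewer cells in mitosis and less RNA of a gene per cell cannot be told apart here. The list was written with results of these data known, so these counts describe it and do not test it.

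**Figure D1:**
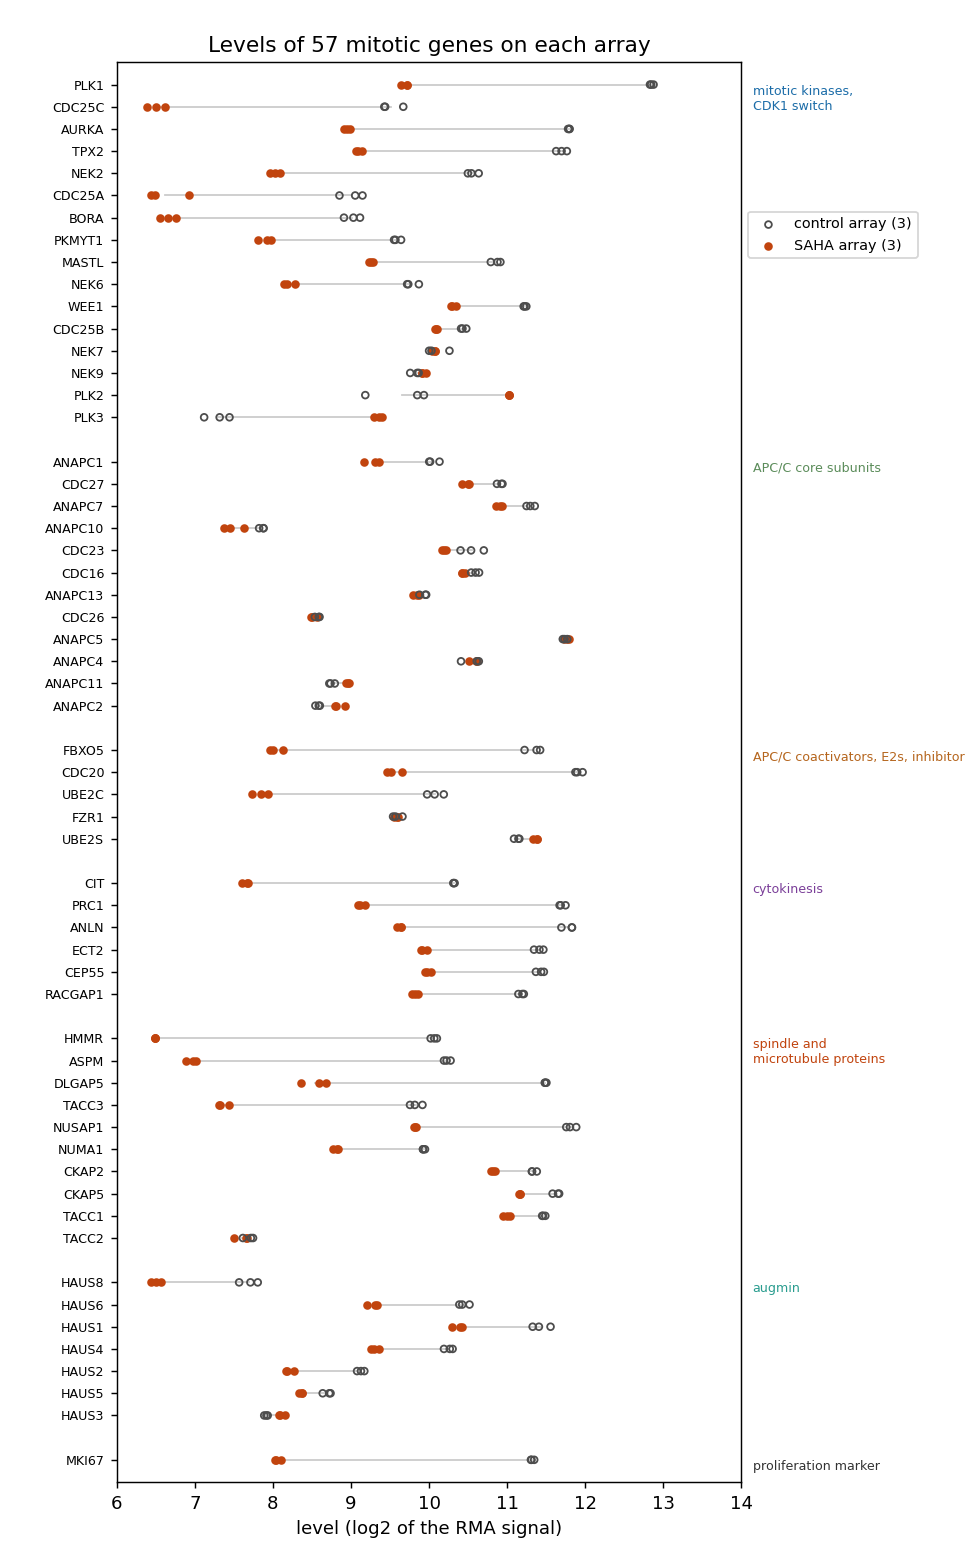
Level of each of the 57 measured genes (log2 of the RMA signal) on the 3 control arrays (open points) and the 3 SAHA arrays (filled points), by role and sorted by change, with a grey line joining the group means. For 51 genes the groups do not overlap, which also holds for 65.4% of all genes. The APC/C core subunits lie close together between groups, and PLK2 and PLK3 stand out with higher SAHA values.

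The 6 arrays were alike in overall level, with median RMA signals of 142 to 149 on the linear scale. Pearson correlations over all probe sets were 0.9965 to 0.998 within groups and 0.9728 to 0.9738 between them. The list of housekeeping genes had 11 measured, with 3 higher, 2 lower and 6 that missed the threshold. Centring each array on the median level of these 11 genes, called housekeeping centring here, moved the median of all genes to -0.44 and gave 2200 genes higher and 13918 lower, against 5735 and 5314. Among markers of other cell types, 1 of 3 leukocyte genes rose (CD68, 1.55), and the summed linear signal of that list was 556 to 711 in control and 1634 to 1685 in SAHA. That sum was mostly CD68 (9.09 in control, log2), since PTPRC (4.05) and CD3E (5.66) were dim and did not pass. In the endothelial list 1 of 3 genes fell (CDH5, -2.19), and the sum went from between 6777 and 7047 to between 1562 and 1630. It was almost all CDH5 (12.73 in control), while PECAM1 (5.04) and VWF (5.85) were dim and did not pass. These sums therefore follow single genes and do not measure a content of leukocytes or endothelial cells. The fibroblast list had 2 of 3 genes higher and sums of 2094 to 2401 and 4882 to 5077, the muscle list 1 of 3 higher and sums of 431 to 453 and 554 to 599. CDH1 and EPCAM of the epithelial list changed by -0.17 and 0.14, with sums of 793 to 865 and 716 to 767. RMA signals have no 0, no marker could be called absent, and the part of these markers in the results was not tested. Of the 6 genes listed for A204, VIM, CD44, KRT18 and SMARCB1 fell, FN1 rose by 3.25 and KRT8 missed the threshold. SMARCB1 (-0.51) was listed as a gene that this tumour type typically lacks, so its fall is not the loss of a marker.

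Late-cycle promoters often hold CHR elements and CCAAT boxes, and the sequences of 9 genes are printed here, with and without them, from RefSeq (GRCh38.p14), 250 bases before to 50 after the listed start of transcription, 5′ to 3′ on the gene's strand. Capitals mark CHR elements, searched on both strands as TTTGAA, as the variant TTTAAA and as the variant TTCGAA, and CCAAT boxes, searched by the letters of their name. A CHR element and a CCAAT box can share a letter at their ends, as in MKI67. HMMR lies at chr5:163460382-163460681 (plus strand), MKI67 at chr10:128126374-128126673 (minus), PLK1 at chr16:23678639-23678938 (plus), PRC1 at chr15:90994486-90994785 (minus) and CDC20 at chr1:43358731-43359030 (plus), and all 5 fell at least 4-fold. HAUS6 at chr9:19102855-19103154 (minus) fell 2.24-fold, and PLK3 at chr1:44800127-44800426 (plus) rose. FBXO5 at chr6:152983530-152983829 (minus) and CDC25C at chr5:138338306-138338605 (minus) fell at least 8-fold. The 9 genes were chosen after their values were seen.
HMMR: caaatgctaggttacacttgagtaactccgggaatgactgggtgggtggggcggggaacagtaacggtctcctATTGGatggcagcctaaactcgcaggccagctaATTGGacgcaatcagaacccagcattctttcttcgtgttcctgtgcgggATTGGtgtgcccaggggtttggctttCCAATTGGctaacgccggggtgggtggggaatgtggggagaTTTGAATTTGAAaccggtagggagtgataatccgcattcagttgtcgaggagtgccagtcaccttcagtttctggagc
MKI67: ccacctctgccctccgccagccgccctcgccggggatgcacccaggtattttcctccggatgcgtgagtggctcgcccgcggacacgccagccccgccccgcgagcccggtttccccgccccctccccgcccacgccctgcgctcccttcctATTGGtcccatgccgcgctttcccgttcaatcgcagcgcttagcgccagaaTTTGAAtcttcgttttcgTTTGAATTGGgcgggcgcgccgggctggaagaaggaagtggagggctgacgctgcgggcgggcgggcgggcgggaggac
PLK1: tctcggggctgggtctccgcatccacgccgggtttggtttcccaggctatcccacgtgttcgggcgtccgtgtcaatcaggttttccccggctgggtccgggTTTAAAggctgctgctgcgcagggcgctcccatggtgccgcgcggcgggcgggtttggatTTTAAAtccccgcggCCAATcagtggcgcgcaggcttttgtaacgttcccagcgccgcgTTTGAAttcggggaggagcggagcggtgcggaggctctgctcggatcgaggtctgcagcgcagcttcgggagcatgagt
PRC1: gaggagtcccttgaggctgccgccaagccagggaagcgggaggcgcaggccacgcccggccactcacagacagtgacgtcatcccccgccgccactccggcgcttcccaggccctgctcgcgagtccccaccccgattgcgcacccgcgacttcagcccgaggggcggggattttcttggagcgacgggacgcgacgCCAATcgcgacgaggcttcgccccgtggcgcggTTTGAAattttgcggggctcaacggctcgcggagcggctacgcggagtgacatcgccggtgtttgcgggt
CDC20: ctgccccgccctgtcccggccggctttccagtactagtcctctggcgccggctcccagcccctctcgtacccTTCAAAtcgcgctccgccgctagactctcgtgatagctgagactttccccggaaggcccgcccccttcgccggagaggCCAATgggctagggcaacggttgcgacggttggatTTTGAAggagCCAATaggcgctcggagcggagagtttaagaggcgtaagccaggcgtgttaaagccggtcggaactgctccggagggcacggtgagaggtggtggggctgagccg
FBXO5: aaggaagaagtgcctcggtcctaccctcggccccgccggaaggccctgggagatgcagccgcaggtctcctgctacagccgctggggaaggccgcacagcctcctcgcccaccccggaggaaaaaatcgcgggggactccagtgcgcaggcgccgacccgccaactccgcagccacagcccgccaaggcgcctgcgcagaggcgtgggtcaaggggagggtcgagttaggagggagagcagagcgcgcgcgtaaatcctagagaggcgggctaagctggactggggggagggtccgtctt
CDC25C: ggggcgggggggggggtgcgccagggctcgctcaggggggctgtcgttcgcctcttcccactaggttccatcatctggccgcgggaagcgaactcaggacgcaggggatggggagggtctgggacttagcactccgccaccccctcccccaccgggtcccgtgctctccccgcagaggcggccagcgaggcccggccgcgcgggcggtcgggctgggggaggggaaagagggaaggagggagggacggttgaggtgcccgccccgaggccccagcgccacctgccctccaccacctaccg
HAUS6: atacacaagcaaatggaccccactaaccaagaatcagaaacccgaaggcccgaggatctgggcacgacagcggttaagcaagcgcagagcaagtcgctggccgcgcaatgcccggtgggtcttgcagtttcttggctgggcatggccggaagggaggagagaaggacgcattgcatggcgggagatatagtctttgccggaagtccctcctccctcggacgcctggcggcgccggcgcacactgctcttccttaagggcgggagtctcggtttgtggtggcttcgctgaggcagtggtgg
PLK3: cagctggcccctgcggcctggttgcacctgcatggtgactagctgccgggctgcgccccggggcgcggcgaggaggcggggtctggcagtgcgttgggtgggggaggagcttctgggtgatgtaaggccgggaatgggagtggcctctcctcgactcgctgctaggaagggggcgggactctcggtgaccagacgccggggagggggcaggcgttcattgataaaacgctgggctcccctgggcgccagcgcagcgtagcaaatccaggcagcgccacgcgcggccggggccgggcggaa

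HMMR has adjacent CHR elements at 28 and 22 bases before the start and 5 CCAAT boxes, and PLK1 has a CHR element 29 bases and a CCAAT box 73 bases before it. The windows of FBXO5, CDC25C, HAUS6 and PLK3 hold neither motif. A match is only a match of letters, not a measured site, and its absence says only that these letters are not in this window.

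Of the kinases and regulators of the CDK1 switch, 12 of 16 fell, PLK2 and PLK3 rose, and NEK7 and NEK9 did not pass. The median change of this group was -1.64. PLK1, the polo-like kinase that drives spindle assembly and mitotic exit, read 12.83, 12.88 and 12.85 on the control arrays and 9.64, 9.72 and 9.71 on the SAHA arrays (replicates 1, 2 and 3 in this and later sentences). All 3 SAHA values lay far below all control values, an 8.96-fold fall (change -3.16, 95% interval -3.27 to -3.06, adjusted p = 5.41e-09). CDC25C, the phosphatase that activates CDK1 at mitotic entry, read 9.43, 9.44 and 9.67 in control and 6.61, 6.39 and 6.50 in SAHA. Its groups were also far apart, and the fall was 8.05-fold (adjusted p = 4.49e-08). AURKA, the Aurora A kinase of centrosomes and spindle poles, read 11.80, 11.78 and 11.80 in control and 8.95, 8.99 and 8.91 in SAHA, 7.18-fold lower without overlap (adjusted p = 5.45e-09). Both proteins that bring Aurora A into action fell with it, TPX2 by 6.07-fold and BORA by 5.14-fold.

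The enzymes on either side of the CDK1 switch moved in the same direction, and by unequal amounts. CDC25A, the phosphatase also used at the start of S phase, fell 5.29-fold, although SAHA replicate 2 (6.92) was higher than the others (6.49 and 6.44). CDC25B, the phosphatase that starts CDK1 activation at centrosomes, fell only 1.27-fold (change -0.35, 95% interval -0.44 to -0.25). Of the opposing kinases, WEE1 fell 1.89-fold and the membrane-bound PKMYT1 3.22-fold. WEE1 had 2 further probe sets, with changes of -1.20 and -1.20 against -0.92 for the brightest. MASTL, the greatwall kinase that shuts off the phosphatase opposing CDK1, fell 3.04-fold.

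Polo-like kinases did not move together. PLK3, a stress-response kinase, read 7.12, 7.44 and 7.32 in control and 9.40, 9.29 and 9.36 in SAHA. Every SAHA value was above every control value, a 4.17-fold rise (change 2.06, 95% interval 1.87 to 2.25, adjusted p = 2.49e-07). PLK2, another kinase of stress responses with a role in centriole duplication, read 9.93, 9.85 and 9.18 in control and 11.03, 11.02 and 11.03 in SAHA. The groups do not overlap, but control replicate 3 was lower than the other control arrays by more than the SAHA arrays varied. The rise was 2.59-fold (change 1.37, 95% interval 0.96 to 1.78, adjusted p = 0.000201).

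The NIMA-related kinases split as well. NEK2, which separates the centrosomes, fell 5.78-fold, and NEK6, a spindle kinase, 2.98-fold. NEK7, the close relative of NEK6, read 10.03, 10.00 and 10.26 in control and 10.03, 10.07 and 10.07 in SAHA. The groups overlap and the change of -0.04 did not pass (95% interval -0.20 to 0.13, adjusted p = 0.687), and repeated quantile normalization (0.024) or leaving out control replicate 3 (0.045) gave the opposite sign. NEK9, the kinase that activates NEK6 and NEK7, changed by 0.10 (95% interval -0.01 to 0.21, adjusted p = 0.0949). It passed when quantile normalization was repeated (0.16, adjusted p = 0.0157) or cyclic loess was used (0.13, adjusted p = 0.0485). It also passed when dimmer genes were removed (0.10, adjusted p = 0.0437). With housekeeping centring its sign turned (-0.34).

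**Figure D2:**
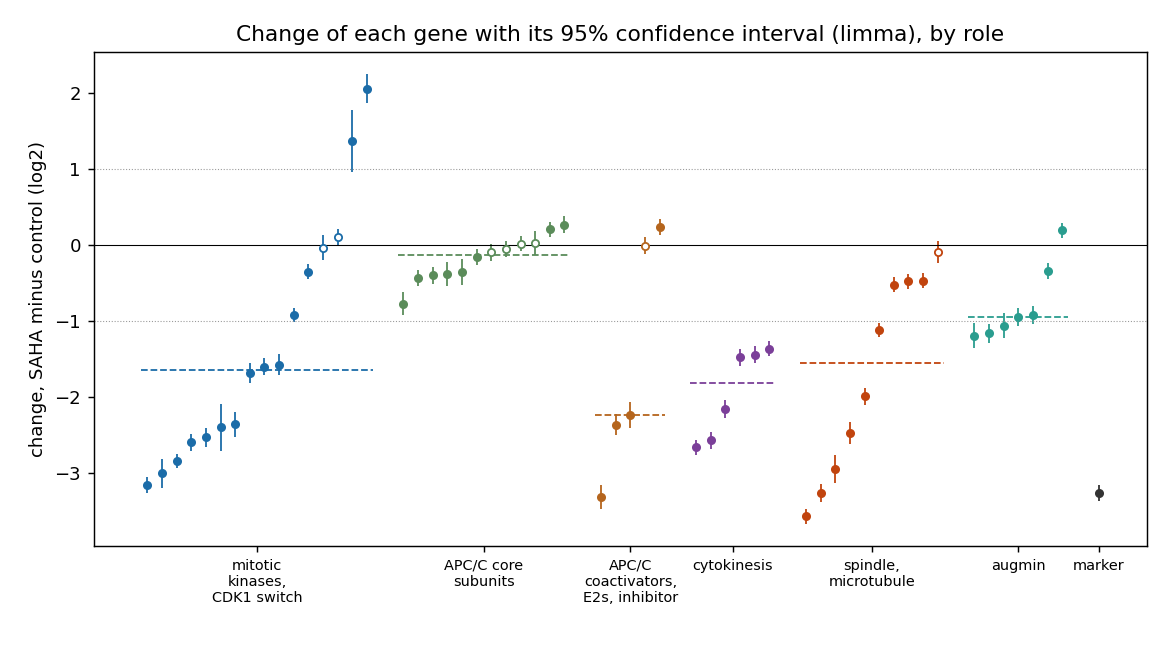
Change of each gene, SAHA minus control on the log2 scale, with its 95% confidence interval from limma, by role, where filled points passed the test, open points did not, and dashed lines are group medians. All 6 cytokinesis genes and most spindle genes and kinases lie below -1 (dotted line), whereas the 12 APC/C core subunits lie between -0.77 and 0.27. With arrays centred on the median level of housekeeping genes all 12 were lower, as were 75.6% of all genes. With arrays shifted by the median housekeeping deviation 7 were lower and 2 higher.

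The core subunits of the APC/C changed little on the RMA scale. There 6 of 12 fell, 2 rose, 4 did not pass, 0 changed 2-fold and the median was -0.13, whereas all 12 were lower with housekeeping centring, as were 75.6% of all genes. With arrays shifted instead by the median deviation of the housekeeping genes, 7 were lower and 2 higher. ANAPC1, the large scaffold subunit, read 10.13, 10.00 and 10.01 in control and 9.16, 9.36 and 9.31 in SAHA. The groups are clearly separated and the fall was 1.71-fold (adjusted p = 1.66e-05), although 4 further probe sets list ANAPC1 with other genes, so near-identical copies could share its signal. CDC27, a subunit of the TPR arm that binds the coactivators, read 10.93, 10.87 and 10.94 in control and 10.50, 10.42 and 10.52 in SAHA, 1.35-fold lower without overlap. ANAPC7, another TPR subunit, read 11.30, 11.25 and 11.36 in control and 10.91, 10.86 and 10.94 in SAHA, 1.32-fold lower without overlap.

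The rises in the core were those of ANAPC2, its cullin subunit, and ANAPC11, its RING subunit, which together form the catalytic site. ANAPC2 read 8.54, 8.59 and 8.60 in control and 8.81, 8.80 and 8.92 in SAHA. ANAPC11 read 8.72, 8.79 and 8.74 in control and 8.96, 8.94 and 8.97 in SAHA. Neither gene's groups overlap, with changes of 0.27 (limma adjusted p = 0.00167) and 0.21 (limma adjusted p = 0.00284). These turned to -0.17 and -0.23 with housekeeping centring, a scaling in which all genes had a median of -0.44. With the shift by the median housekeeping deviation both genes stayed higher. The other probe set of ANAPC11 was higher by 0.16.

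Of the remaining core subunits 3 fell. The TPR subunits CDC23 and CDC16 changed by -0.36 and -0.16, and ANAPC10, which helps to hold substrates, by -0.38, each without overlap of the groups. CDC16 no longer passed when the arrays were quantile normalized again (-0.11, limma adjusted p = 0.071). The same held when control replicate 1 (p rising to 0.0541 after adjustment), SAHA replicate 1 (0.0601) or SAHA replicate 3 (0.0561) was dropped. ANAPC4, a platform subunit, read 10.61, 10.41 and 10.64 in control and 10.51, 10.62 and 10.60 in SAHA, with overlapping groups and a 95% interval of -0.14 to 0.18 (adjusted p = 0.79). ANAPC5, also of the platform, was at 0.02, and CDC26 and ANAPC13, small subunits that stabilise the TPR arm, were at -0.05 and -0.10. None of these 4 passed, and the lowest bound of their 95% intervals was -0.20, that of ANAPC13. With arrays shifted by the median housekeeping deviation ANAPC13 did pass (-0.13, limma adjusted p = 0.0391).

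Of the 5 coactivators, E2 enzymes and inhibitor of the APC/C, 3 fell more than 4-fold, UBE2S rose and FZR1 did not pass, with a median of -2.24. FBXO5, the inhibitor EMI1, read 11.42, 11.22 and 11.38 in control and 8.12, 7.96 and 8.001 in SAHA. This was a 9.95-fold fall with widely separated groups (change -3.31, 95% interval -3.47 to -3.16, adjusted p = 1.32e-08). CDC20, the coactivator of metaphase, read 11.88, 11.97 and 11.90 in control and 9.51, 9.47 and 9.66 in SAHA, 5.17-fold lower without overlap. UBE2C, the E2 enzyme that starts ubiquitin chains on APC/C substrates, read 10.07, 10.19 and 9.98 in control and 7.85, 7.73 and 7.94 in SAHA. Its groups are also far apart, with a 4.72-fold fall.

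Their counterparts in the same steps stayed near their control levels on the RMA scale. FZR1 (CDH1), the coactivator of late mitosis and G1, read 9.57, 9.66 and 9.54 in control and 9.59, 9.55 and 9.60 in SAHA, and its arrays were given after its values were seen. The groups overlap, and the change of -0.01 (95% interval -0.12 to 0.10, adjusted p = 0.895) turned to 0.051 when quantile normalization was repeated and to 0.022 with cyclic loess, and was -0.45 with housekeeping centring. UBE2S, the E2 enzyme that lengthens the chains, read 11.09, 11.16 and 11.15 in control and 11.34, 11.39 and 11.38 in SAHA. It rose 1.18-fold without overlap (adjusted p = 0.00148), but was at -0.20 with housekeeping centring. With the shift by the median housekeeping deviation it stayed higher. A further probe set of UBE2S was higher by 0.23.

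Related genes were compared directly by their signal ratio within each array, which is unchanged by a constant shift of an array's log2 values. The log2 ratio of PLK1 to PLK3 changed by -5.22 and that of PLK1 to PLK2 by -4.53 from control to SAHA. The ratio of CDC20 to FZR1 changed by -2.36, with SDs of 0.03 in control and 0.081 in SAHA (n = 3). For UBE2C over UBE2S the change was -2.48, for CDC25C over CDC25B -2.66, for TACC3 over TACC2 -2.39 and for NEK6 over NEK7 -1.54. In all 7 pairs, chosen after the values were seen, the SAHA ratios lay below the control ratios on every array. An exact two-sided permutation test gave p = 0.1 for each pair, before and after Benjamini-Hochberg adjustment over the 7, and 0.1 is the smallest p that 3 against 3 arrays allow.

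**Figure D3:**
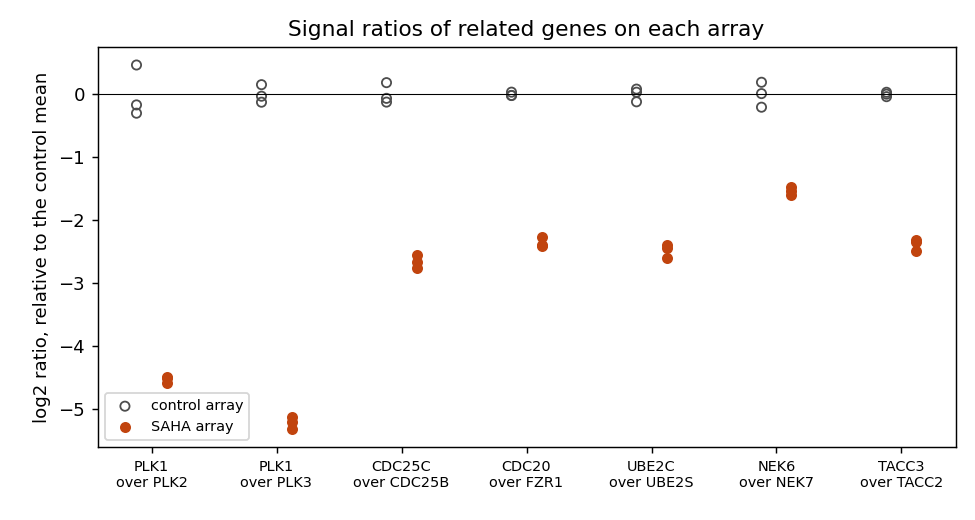
Log2 ratio of the signals of 2 related genes within each array, relative to the mean ratio of the control arrays, for 7 pairs, with open points for control and filled points for SAHA arrays. Control points scatter within 0.47 of 0, and every SAHA point is at or below -1.47, with PLK1 over PLK3 lowest.

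All 6 cytokinesis genes fell at least 2-fold, with a median of -1.82 and changes from -2.67 to -1.37. CIT, citron kinase, which organises the midbody, read 10.31, 10.33 and 10.31 in control and 7.67, 7.68 and 7.60 in SAHA, a 6.35-fold fall (adjusted p = 5.52e-09). PRC1, which bundles the microtubules of the central spindle, read 11.67, 11.69 and 11.75 in control and 9.08, 9.18 and 9.12 in SAHA, 5.96-fold lower. ANLN, anillin of the contractile ring, read 11.83, 11.83 and 11.70 in control and 9.58, 9.65 and 9.64 in SAHA, 4.48-fold lower. None of these groups overlap. ECT2, the exchange factor that activates RhoA at the cleavage site, fell 2.79-fold, its activator RACGAP1 2.58-fold and CEP55, which recruits the abscission machinery, 2.72-fold.

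Among 10 spindle and microtubule genes 9 fell and TACC2 did not pass. Their median was -1.56, with changes from -3.57 to -0.09. HMMR, a spindle pole protein that acts with TPX2, read 10.10, 10.02 and 10.07 in control and 6.49 on each SAHA array (SD 0.0016), 11.9-fold lower and the largest fall of the 57. ASPM, which focuses spindle poles, read 10.19, 10.28 and 10.23 in control and 6.89, 7.02 and 6.98 in SAHA, 9.66-fold lower. DLGAP5 (HURP), which stabilises kinetochore fibres, read 11.51, 11.49 and 11.48 in control and 8.36, 8.59 and 8.68 in SAHA. Its fall was 7.72-fold, and SAHA replicate 1 was the lowest. No background call was made on these arrays, so folds that end at low levels may be compressed.

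TACC3, the Aurora A substrate of spindle microtubules, fell 5.57-fold, and NUSAP1, which bundles spindle microtubules, 3.99-fold. NUMA1, which tethers microtubules to the poles and belongs to the nuclear matrix in interphase, fell 2.18-fold. Smaller falls were those of CKAP2, a spindle protein (1.44-fold), of CKAP5, the microtubule polymerase (1.39-fold), and of TACC1, a relative of TACC3 (1.39-fold). TACC2, the third of this family, read 7.72, 7.74 and 7.61 in control and 7.65, 7.49 and 7.66 in SAHA. The groups overlap, and the change of -0.09 did not pass (95% interval -0.23 to 0.06, adjusted p = 0.261). MKI67, the Ki-67 protein of the surface of mitotic chromosomes, read 11.35, 11.31 and 11.31 in control and 8.10, 8.04 and 8.02 in SAHA, 9.64-fold lower.

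Augmin is the complex of 8 HAUS proteins that lets new microtubules branch from those of the spindle. Of its 7 measured genes 6 fell and 1 rose, their median was -0.95, and 0 fell 4-fold. HAUS8, the subunit that contacts microtubules, read 7.57, 7.71 and 7.80 in control and 6.43, 6.57 and 6.50 in SAHA, 2.29-fold lower. HAUS6, which recruits the nucleating γ-tubulin complex, read 10.39, 10.43 and 10.52 in control and 9.31, 9.21 and 9.33 in SAHA, 2.24-fold lower, and its other probe set changed by -1.31. HAUS1 read 11.41, 11.33 and 11.56 in control and 10.39, 10.29 and 10.43 in SAHA, 2.09-fold lower. In each case the SAHA values lay about 1 log2 unit below the control values. HAUS4 fell 1.93-fold, HAUS2 1.89-fold and HAUS5 1.27-fold. HAUS3 went the other way, reading 7.92, 7.89 and 7.93 in control and 8.15, 8.08 and 8.10 in SAHA. Its groups do not overlap, and the change of 0.20 (adjusted p = 0.00416) turned to -0.24 with housekeeping centring. HAUS3 stayed higher with the shift by the median housekeeping deviation.

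Promoter windows were found for 50 of the 58 genes, 12 of them with several listed starts, of which the first was used. No window was found for AURKA, WEE1, PKMYT1, TPX2, NEK7, TACC1, RACGAP1 or UBE2C. Both a CHR element and a CCAAT box were found in 13 of the 24 genes that fell at least 2-fold (54.2%) and in 2 of the 12 that fell less (16.7%). Of the 6 genes that rose and the 7 that did not pass, 0 had both. Among 14239 promoters of genes tested on the arrays 8.17% had both, 20.3% a CHR element and 36.3% a CCAAT box. In the table's 27305 genes these shares were 9.95%, 25.3% and 35.7%. Taken singly, TTTGAA was in 38% of the 50 listed genes against 15.4% of these 27305. The variant TTTAAA was in 10% against 12.3%, and TTCGAA in 2% against 1.45%. In NUMA1 and CDC27 the only CHR element was TTTAAA. With all listed starts of a gene, 15 of the 24 had both (62.5%), against 10.8% of the tested genes. No test was made, since the list was chosen with results known.

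By role, both elements were found in 4 of 5 cytokinesis promoters, the printed one of PRC1 among them, in 6 of 9 spindle promoters, HMMR included, and in that of MKI67. They were found together in 2 of 11 promoters of kinases and the CDK1 switch (PLK1 and BORA), in 1 of 4 of the coactivators, E2 enzymes and inhibitor (CDC20), in 1 of 12 of the APC/C core (CDC27) and in 0 of 8 of augmin. The 15 genes with both had a median change of -2.37 and a range of -3.57 to -0.43. The 19 measured genes with neither had a median of -0.35 and ran from -3.31 to 2.06. FBXO5, CDC25C and TACC3 are among the latter, by the window of the first listed start only, and fell more than 4-fold. E2F sites, searched on both strands as TTTCGCGC, TTTGGCGC, TTTCCCGC or TTTGGCGG, were found in 5 of 50 promoters (10%), against 4.67% of the tested genes.

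**Figure D4:**
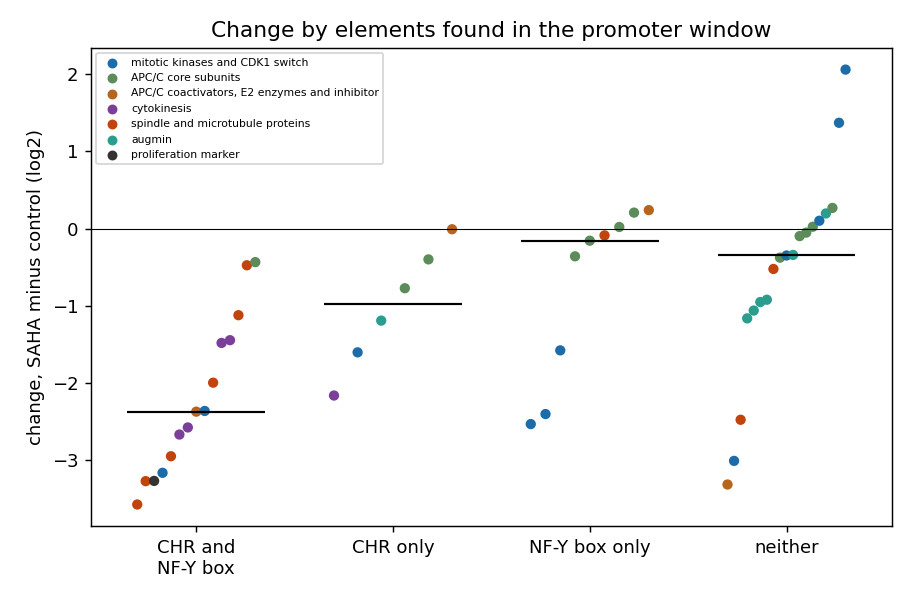
Change (SAHA minus control, log2) of the measured genes with a promoter window, by whether the window holds a CHR element, a CCAAT box (bound by NF-Y), both or neither, with colours for role and a line at each median. The medians are -2.37 for both (15 genes), -0.98 for a CHR element only (6), -0.16 for a CCAAT box only (9) and -0.35 for neither (19), and the ranges of the classes overlap.

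The other genes of these pathways were read from 7 lists with 82 measured genes, of which 59 fell and 11 rose (3 with housekeeping centring). Among all genes 28.9% were lower and 31.1% higher, and the counts of each list below stand beside these shares. The median was -0.72. Both further APC/C subunits fell, ANAPC16 by 1.01 and ANAPC15 by 0.38 on the log2 scale. Of 15 APC/C substrates and checkpoint proteins that inhibit it, 14 fell, with a median of -2.19. Cyclin A2 (CCNA2) went from 12.00 ± 0.12 to 8.67 ± 0.06 (log2, SD, n = 3) and cyclin B2 (CCNB2) from 11.72 ± 0.09 to 8.44 ± 0.13. MAD2L1BP, which takes the checkpoint inhibitor apart, was higher by 0.13 (adjusted p = 0.0329), but at -0.31 with housekeeping centring. Its rise no longer passed without control replicate 2 (limma adjusted p = 0.0807), nor when SAHA replicate 1 (0.0941), 2 (0.0547) or 3 (0.106) was dropped, nor with the shift by the median housekeeping deviation (0.1). Of 12 genes around CDK1 and greatwall, 7 fell and 1 rose. CDK1 itself changed by -2.43 and the checkpoint kinase CHEK2 by -1.23, while PPP2CB, a catalytic subunit of the phosphatase that greatwall restrains, rose by 0.25, or was at -0.19 with housekeeping centring.

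The regulators that act at mitotic promoters had 12 of 16 genes lower and 2 higher. FOXM1, the late-cycle activator, went from 11.30 ± 0.05 to 8.03 ± 0.17 and LIN9, a MuvB subunit, from 9.29 ± 0.04 to 6.70 ± 0.17, while LIN37, the MuvB subunit needed for repression, rose from 9.61 ± 0.14 to 10.34 ± 0.02. Of 10 measured γ-tubulin ring complex genes, the partners of augmin, 6 fell and 2 rose. NEDD1, which docks the ring complex on augmin, changed by -1.20 and TUBGCP3, a ring subunit, by -1.11, whereas TUBG2, the second γ-tubulin gene, rose by 0.85. Of 18 central spindle and cytokinesis partners 12 fell and 2 rose, with the motors KIF20A and KIF4A at -3.23 and -3.07 and RHOA, the GTPase of the cleavage furrow, at 0.30 (-0.14 with housekeeping centring). In the F-box arm, the other ubiquitin ligase of the cell cycle, 6 of 9 fell and 3 rose. The 3 that rose are near the share of all genes that were higher (31.1%). CCNF, the cyclin F receptor, and CUL1, the cullin, changed by -1.49 and -1.45, and SKP1, the adaptor, rose by 0.44 (0.0022 with housekeeping centring, where it no longer passed).

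**Figure D5:**
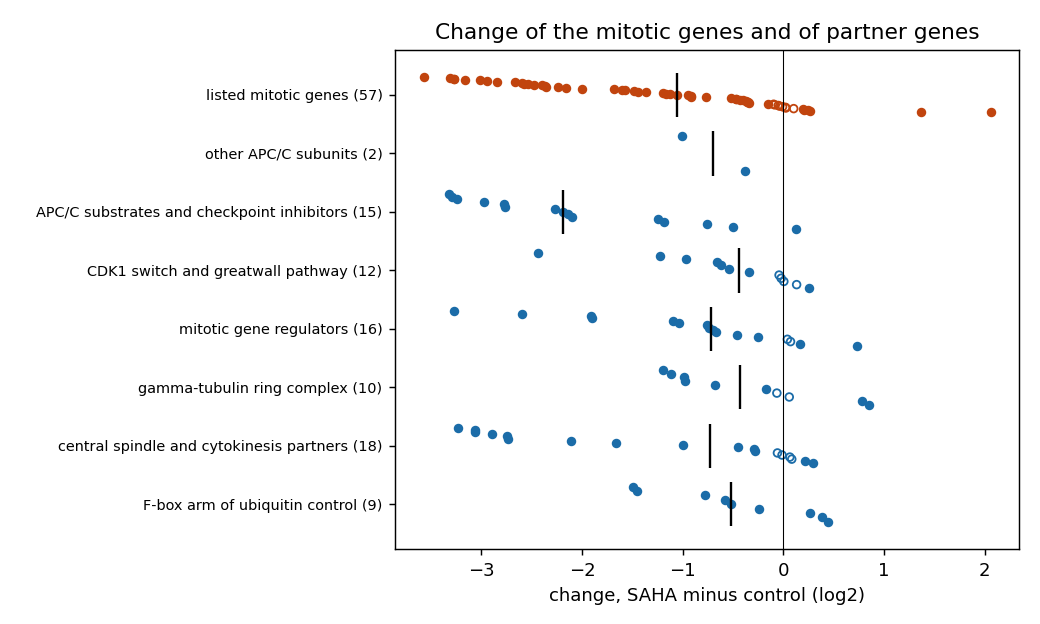
Change (SAHA minus control, log2) of the 57 mitotic genes and of 7 partner lists, with the number of measured genes in brackets, filled points for genes that passed the test, open points for others and a line at each median. The list of APC/C substrates and checkpoint inhibitors has a median of -2.19, the γ-tubulin ring complex list one of -0.43, and PLK2 and PLK3 are the points above 1.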

How the data were processed

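Total RNA was amplified and labelled with a whole-transcript kit from Ambion for Affymetrix gene arrays, per the labels' protocols. The authors deposited 1 signal intensity per probe set and array, summarised with RMA, per the submitters' processing notes, a method that usually corrects background, quantile normalizes arrays and summarises probes. For the RMA software no version is stated in the sources used here. RMA makes arrays alike, so a change in the total RNA of a cell cannot appear. The deposited intensities are linear (6.56 to 20338), so log2 was taken, with no pseudocount and no filter on dim genes. Of 33252 probe sets, 19460 name 1 gene in GEO's platform annotation, 1754 several and 12038 none. Symbols were updated by Entrez identifier (RefSeq, GRCh38.p14, 19429 matched). Groups came from the sample titles. SAHA and control were compared with limma 3.58.1 (R 4.3.3, lmFit and eBayes, no covariates, two-sided, Benjamini-Hochberg over 18417 genes). The code of the fit was run on simulated data in which a far smaller share of genes changed than here, which checks the code and not these results. The alternatives were other scalings, filters, probe set rules, spread estimates, a pseudocount, the replicate block and each array left out in turn.

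The members and lists were chosen with earlier results of these data known. Arrays are given in full for the 3 members of each role with the largest change, called members that moved against their role's median, and, in roles of 10 or more, the member with the largest p. From each partner list the 2 largest called changes and the largest opposite one are named. Other genes named were chosen after their values were seen. No p is given over a list. The number of arrays limits the precision.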

Additional observations from a re-analysis of the deposited data

How the results depend on the processing

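Of 57 genes, 39 kept their direction and their side of the threshold under all 20 alternatives, 19 planned and 1 added after seeing the data. A further 5 did so under the alternatives that held them, since removing the dimmer genes left out 7 members. With each array centred on the median level of 11 housekeeping genes, 13918 genes were lower and 2200 higher, the median of the mitotic genes was -1.5 with 2 of them higher, and 3 partner genes were higher. In that setting the signs turned for NEK9 (-0.34), ANAPC2 (-0.17), ANAPC4 (-0.42), ANAPC5 (-0.42), ANAPC11 (-0.23), UBE2S (-0.20), HAUS3 (-0.24) and the partner genes MAD2L1BP (-0.31), PPP2CB (-0.19) and RHOA (-0.14). Without a turn of sign, NEK7 (-0.48), CDC26 (-0.49), ANAPC13 (-0.54), FZR1 (-0.45) and TACC2 (-0.53) passed as lower there, as did 75.6% of all genes. The median level was that of TFRC in control and of SDHA in SAHA, so arrays were also shifted by the median housekeeping deviation. With that shift the median of all genes was -0.036, 44 mitotic genes were lower and 6 higher, and only ANAPC4 (-0.0098) and ANAPC5 (-0.013) turned. The partner genes PPP2CB, RHOA and SKP1 stayed higher with it. When the dimmer genes, those with a mean under the median, were removed before the test, 9209 genes were left, 50 of them mitotic. Of the 9209 genes 3660 were higher, against 5735 of 18417 without this filter, so the counts are not directly comparable. The median of the 50 mitotic genes was -1.01. A further quantile normalization turned NEK7 (0.024) and FZR1 (0.051), and cyclic loess turned FZR1 (0.022). Leaving out 1 array in turn gave a median of the mitotic genes of -1.11 to -0.999, NEK7 at -0.086 to 0.045, ANAPC4 at -0.048 to 0.066 and FZR1 at -0.034 to 0.027. Without control replicate 2 the signs of ANAPC4 and FZR1 (0.027) turned, without SAHA replicate 2 that of FZR1 (0.0047), and without control replicate 3 that of NEK7. The causes were not tested. The titles do not say whether same-numbered arrays are paired. Deviations of same-numbered arrays had correlations over genes of -0.030, -0.167 and -0.0042, against -0.0738 to 0.103 for differently numbered ones. No shared deviation was visible, but so few arrays cannot exclude a pairing. With the replicate block 43 mitotic genes were lower and 6 higher, as without it, and the partner gene MAD2L1BP no longer passed (0.13, limma adjusted p = 0.0716). Without background calls, how far dim genes fell is limited.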
